A study of Homo sapiens with 9 samples.

Results

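The regions described here carried H3K27me3 in EZH2 knockdown cells at a density of 13 or more normalised tags per kb, and overlapped no H3K27me3 region listed in control cells. H3K27me3 is trimethylation of lysine 27 on histone H3. They were taken from the H3K27me3 list of the knockdown library on chromosomes 1 to 22 and X, with density as the normalised tag count over the region's width. Of 98450 knockdown H3K27me3 regions on these chromosomes, 62303 (63.3%) overlapped no control region, 25482 (25.9%) reached the density minimum, and 5064 (5.14%) met both conditions. They are called dense knockdown-only regions below. They were chosen by the tag density in the knockdown list and by the lack of a control call, so their H3K27me3 values are given as a description and without a test.

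The cells were LNCaP, an established human prostate cancer cell line, grown in RPMI with 10% serum. Control cells (plko.1, the empty lentiviral vector) and knockdown cells (shEZH2, a lentivirus with a short hairpin against EZH2) were fixed with 1% paraformaldehyde, and the protocol gives 2 to 3 days between infection and fixation. EZH2, H3K27ac and H3K27me3 were each profiled by ChIP-seq in 1 library per group, so 6 of the series' 9 samples entered and the other 3 were not analysed here. Libraries held 13331155 to 33289172 tags, with 33289172 for control and 26241104 for knockdown H3K27me3. A spread between cultures could not be measured without replicates, and the 95% intervals in parentheses cover counting error over regions only. EZH2 expression was not measured in these files, and the EZH2 lists held 23060 peaks in control and 9493 in knockdown. The target was titled EZH2(CST) in control and EZH2 in knockdown, so the titles do not show whether the same antibody was used. Markers of the cell line were not read, as no gene annotation of the hg19 build was used, and regions are named by their hg19 coordinates without genes or sequence.

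H3K27me3 is placed by Polycomb repressive complex 2, in which EZH2 is the methyltransferase. The mark lies over silenced genes and forms broad domains around sites where the complex is recruited, with weaker stretches at their borders. H3K27ac, the acetylated form of that lysine, is found at active promoters and enhancers, and a single histone tail cannot carry both forms there.

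Most of these regions lay just above the density minimum. Their H3K27me3 density had a median of 13.7 normalised tags per kb, with 90% of regions between 13.1 and 16 and a maximum of 51.0. The mean over the genome was 4.45 tags per kb in either H3K27me3 library, so the median region stood 3.08-fold above it in the knockdown library. In unscaled tags of that library, the regions held about 34.9 at the lowest, 55.9 at the median and 433 at the highest. The 5 regions just inside the minimum held 13 to 13.0021 normalised tags per kb and the 5 just outside 12.9987 to 12.9995. None of these 10 held an EZH2 or H3K27ac peak of either group. Such a peak was also missing at 94.0% of dense knockdown-only regions and 89.4% of all knockdown H3K27me3 regions.

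The 2 H3K27me3 lists were called with different settings, which bears directly on the missing control call. A call needed 9.53 normalised tags per kb over a 1000 bp window in knockdown and 26.0 over a 150 bp window in control. No control region on these chromosomes had fewer than 16.1 tags per kb. Of the dense knockdown-only regions, 224 (4.42%, 3.87 to 5.03) reached 16.1 and 3 (0.0592%) reached 26.0. Over all knockdown H3K27me3 regions the shares were 9.68% and 1.57%. Over regions of the same minimum density that overlapped control they were 45.6% and 7.53%. These densities are means over a whole region, so a 150 bp window inside it could hold more. Tags spread evenly at the median density of 13.7 would give 6.84 tags per 150 bp window in the control library, where 13 were required. A region could thus hold the same H3K27me3 in both groups and be listed in knockdown alone, and no tags of the control library outside its listed regions were analysed here. Gain of H3K27me3 and the change of settings cannot be told apart for these regions.

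**Figure D1:**
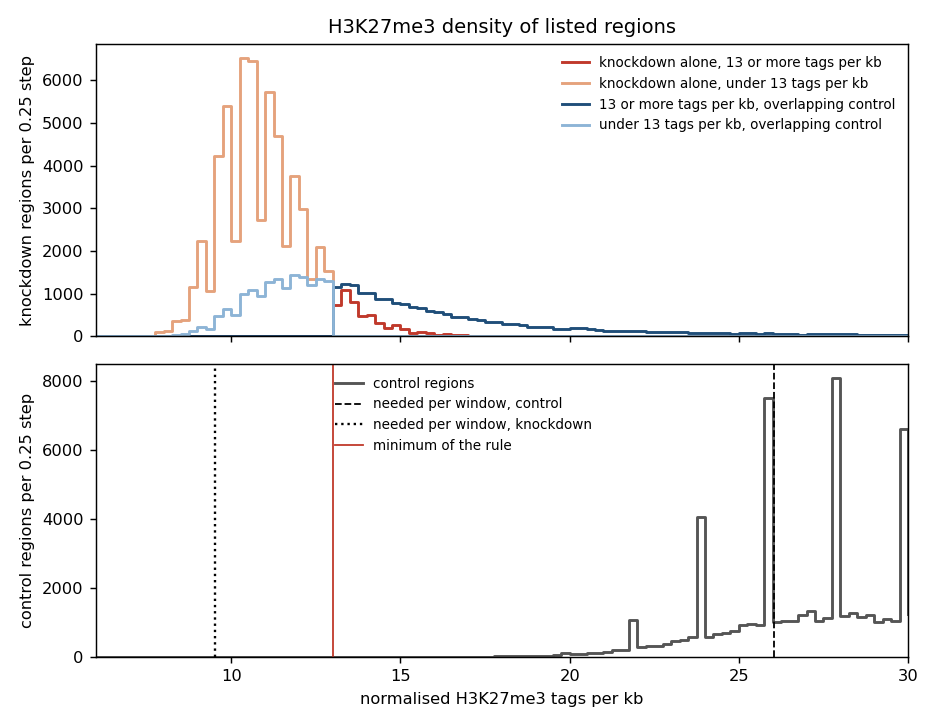
Number of H3K27me3 regions (y) per 0.25 step of density in normalised tags per kb (x), for 4 classes of knockdown regions (top) and for the control list (bottom). The dense knockdown-only regions (red) fall off steeply above 13, below nearly all control regions, and vertical lines mark the minimum of 13 and the densities of 9.53 and 26.0 needed per window in knockdown and control.

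In width the regions were close to the middle of the knockdown list, with fewer at either extreme. The median width was 1543 bp (1531 to 1553), against 1535 bp over all knockdown H3K27me3 regions. The narrowest listed width, 1001 bp, was that of 1244 (24.6%), against 30.7% of all. Wider than 3000 bp were 591 (11.7%), against 20.3%, and together the regions covered 9.40 Mb. Regions of the same minimum density that overlapped a control region, called dense shared regions here, had a median width of 3872 bp. Knockdown-only regions under 13 tags per kb, called thin knockdown-only regions, had a median width of 1261 bp and were at the minimum width in 45.6% of cases. The score of the caller had a median of 33 in dense knockdown-only regions and 31 in dense shared regions.

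Control H3K27me3 was usually close by. The median distance from the edge of a dense knockdown-only region to the nearest control region was 7343 bp (6920 to 7759). A control region lay within 1 kb of 408 (8.06%), within 10 kb of 2926 (57.8%, 56.4 to 59.1) and within 100 kb of 4726 (93.3%). Over all knockdown H3K27me3 regions, those that overlap control included, 70.0% lay within 10 kb. On both sides within 10 kb, control regions stood at 1078 (21.3%, 20.2 to 22.4). Thin knockdown-only regions were somewhat farther away, with a median of 9134 bp and 52.2% within 10 kb, a difference of 5.59 percentage points (4.17 to 7.01). Of the thin ones, 6.35% had a control region within 1 kb and 16.7% had control regions within 10 kb on both sides. Within 100 kb on either side the dense regions had a median of 9 control regions and the thin ones 8, against 23 for the dense shared regions.

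The control regions next to them were slightly narrower and lower in tags than the whole control list, at nearly the same density. The 8074 control H3K27me3 regions within 10 kb of a dense knockdown-only region had a median of 5.71 normalised tags (5.71 to 6.01) over 198 bp (196 to 200), at 28.7 tags per kb. Over the whole control list on these chromosomes the medians were 6.31 tags (6.31 to 6.31), 211 bp (209 to 212) and 28.9 tags per kb. Control regions within 10 kb of thin knockdown-only regions were alike, with medians of 5.71 tags, 196 bp and 28.5 tags per kb. In the knockdown list itself the next H3K27me3 region was at a median of 1487 bp (1415 to 1568), and 2857 (56.4%) had one within 2 kb, close to the 1428 bp and 57.8% over all knockdown regions. At the other extreme, 338 dense knockdown-only regions (6.67%) lay over 100 kb from any control H3K27me3. The share was 7.75% of thin knockdown-only regions and 4.85% of all knockdown regions, those that overlap control included. The farthest dense knockdown-only regions were chrX:27476045-27477300 at 1552489 bp, with 14.6 tags per kb, and chr2:194574654-194575654 at 1514613 bp, with 15.2. Of the 5 farthest, 3 were on chromosome X, and all 5 had a width of 1001 or 1256 bp.

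**Figure D2:**
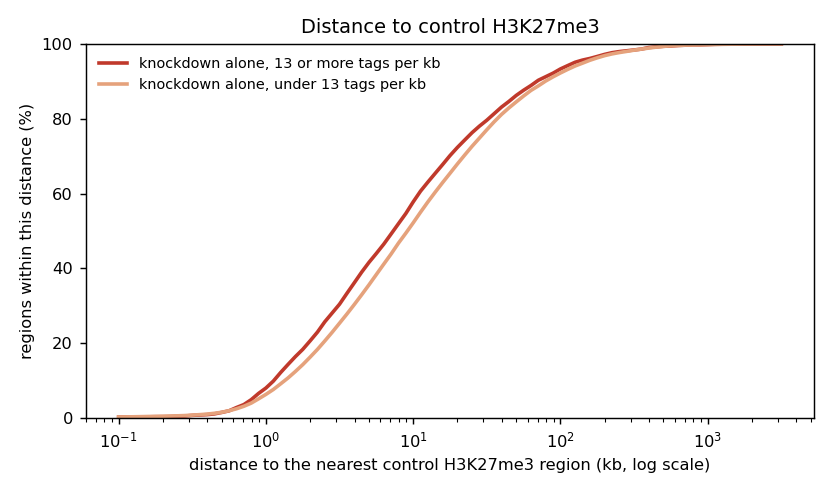
Share of regions in percent (y) with a control H3K27me3 region within a given distance in kb (x, log scale), for dense (red) and thin (orange) knockdown-only regions. The red curve runs above the orange one through the middle of the range, with medians of 7343 and 9134 bp.

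EZH2 peaks were few at these regions, with 276 overlaps of control peaks and 43 of knockdown peaks, and the control EZH2 list was also the longer one. A control EZH2 peak lay in 267 of the 5064 regions (5.27%, 4.67 to 5.92), against 9.42% of all knockdown H3K27me3 regions. A knockdown EZH2 peak lay in 39 (0.770%, 0.548 to 1.05), against 4.12%. Both counts were thus below the share over the whole list. They were above those of thin knockdown-only regions, of which 1.52% held control EZH2 and 0.222% knockdown EZH2. The difference was 3.75 percentage points (3.16 to 4.41) for control and 0.548 (0.338 to 0.831) for knockdown. Dense shared regions held control EZH2 in 35.8% and knockdown EZH2 in 18.1% of cases, so that the differences were -30.5 (-31.4 to -29.6) and -17.3 (-17.9 to -16.7) points. Shared regions under 13 tags per kb, called thin shared regions, were the nearest match for control EZH2, at 5.32%, with a difference of -0.0425 points (-0.728 to 0.691). For knockdown EZH2 they were higher, at 1.21%, with a difference of -0.444 points (-0.720 to -0.121).

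The order of thin knockdown-only, dense knockdown-only and dense shared regions held when the widths were made alike. For control EZH2 the share of thin shared regions stayed close to that of dense knockdown-only ones. With the other classes weighted to the widths of the dense knockdown-only regions, control EZH2 lay in 1.71% of thin knockdown-only, 23.5% of dense shared and 5.04% of thin shared regions. The last was near the 5.27% of the dense knockdown-only ones. Per Mb covered, there were 29.4 control EZH2 peaks in dense knockdown-only regions, 10.8 in thin ones, 94.0 in dense shared ones and 23.8 in thin shared ones. For knockdown EZH2 the numbers were, in the same order, 4.57, 1.57, 51.5 and 5.48 per Mb. Within the dense knockdown-only regions the share with control EZH2 was 2.97% (2.10 to 4.08) at the minimum width and 7.87% (4.65 to 12.3) above 4000 bp.

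**Figure D3:**
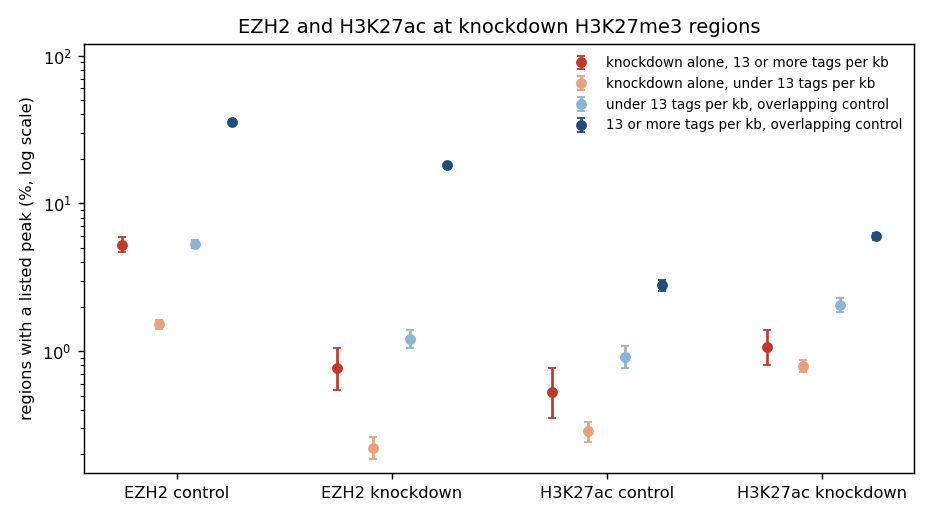
Share of regions in percent (y, log scale) that hold a listed peak of EZH2 or H3K27ac of either group (x), for 4 classes of knockdown H3K27me3 regions. Points are shares and bars 95% exact binomial intervals. Dense knockdown-only regions (red) lie above thin knockdown-only ones (orange) for EZH2, and far below dense shared ones (dark blue) in all 4 lists.

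The EZH2 peaks at these regions were low in tags. The 276 control peaks had a median of 8.25 normalised tags, against 10.1 over the control list, with a range from 5.25 to 231. Their median fold over the surrounding 10 kb, as deposited by the authors, was 9.92, against 8.30 for the list. Of them, 203 (73.6%) had their centre in the central 50% of the region and 264 lay wholly inside it. These positions were not counted in the other classes, and the peak window was 183 bp against regions of at least 1001 bp. Of the 276, 18 (6.52%, 3.91 to 10.1) overlapped a knockdown EZH2 peak. Over control EZH2 peaks on these chromosomes the share was 22.6%, and over those in dense shared regions 31.4%. The 907 control peaks in thin knockdown-only regions were alike, with medians of 8.25 tags and 9.58-fold, and 6.17% overlapped a knockdown peak. The 43 knockdown peaks at dense knockdown-only regions had a median of 8.96 tags, and 18 of them (41.9%, 27 to 57.9) overlapped a control peak. The share was 55.9% of knockdown EZH2 peaks on these chromosomes. In thin knockdown-only regions the knockdown peaks also had a median of 8.96 tags, and 41.7% overlapped a control peak. The window threshold was 6.75 normalised tags in control and 6.89 in knockdown, so the median control peak lay close to both.

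A higher H3K27me3 density in knockdown went with more control EZH2. Control EZH2 was listed at 61 of 1812 regions with 13 to 13.5 tags per kb (3.37%, 2.58 to 4.30), and at 5.42% of those with 14 to 15. The share was 14.8% (10.1 to 20.6) of 196 regions with 16 to 18 tags per kb and 39.5% (25 to 55.6) of 43 regions with 18 or more. Knockdown EZH2 was at 0.497% in the lowest of these bins and at 11.6% (3.89 to 25.1) in the highest. Without the regions of clonal fold 1.5 or more (observed over expected tags per position), control EZH2 was at 12 of 37 in the highest bin (32.4%, 18 to 49.8), and knockdown EZH2 at 2 of 37 (5.41%, 0.661 to 18.2). Dense shared regions in the same closed bins held control EZH2 more often, from 8.89% at 13 to 13.5 to 35.5% at 16 to 18, but they were also wider. The bin of 18 or more has no upper end, and its median density was 18.8 tags per kb for dense knockdown-only and 21.9 for dense shared regions, of which 71.8% held control EZH2. EZH2 and H3K27me3 came from separate libraries, and the density of H3K27me3 was used by the rule only as a minimum.

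Among the dense knockdown-only regions, control EZH2 was also more frequent at those far from control H3K27me3. It was listed at 65 of 2106 regions under 5 kb from a control region (3.09%, 2.39 to 3.92), at 6.25% of those at 10 to 50 kb and at 43 of 338 beyond 100 kb (12.7%, 9.36 to 16.8). The far regions were narrower, with a median of 1268 bp against 1647 bp under 5 kb, and of nearly the same density, 13.9 and 13.7 tags per kb. Among regions under 14 tags per kb the share was 2.84% (2.00 to 3.89) below 5 kb and 9.55% (5.66 to 14.9) beyond 100 kb. Among regions with 14 or more it was 3.50% (2.34 to 5.01) and 16.3% (10.9 to 22.9). The 267 regions with control EZH2 had a median of 4 control H3K27me3 regions within 100 kb, and those without had 10. Thin knockdown-only regions had the same order at lower values, from 1.17% to 3.63%. The distance was taken to the control list that the rule used, and regions overlapping that list were left out. Of the dense shared regions, left out in this way, 35.8% held control EZH2. The order with distance therefore covers only the regions that remained, and the part of the rule in it was not tested.

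**Figure D4:**
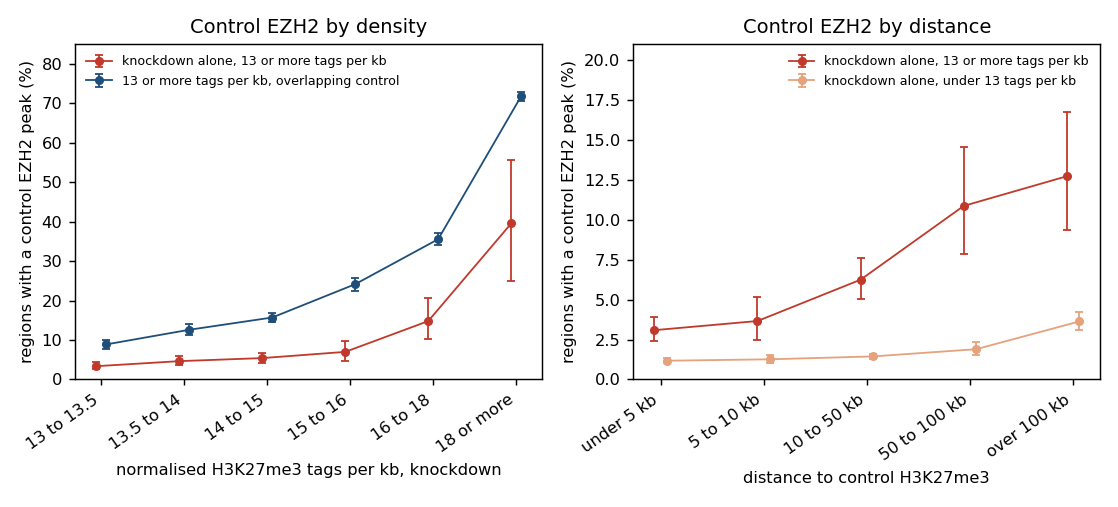
Share of regions in percent with a control EZH2 peak (y), by knockdown H3K27me3 density in normalised tags per kb (left) and by distance to control H3K27me3 (right), with 95% exact binomial intervals. In dense knockdown-only regions (red) it runs from 3.37% to 39.5% with density and from 3.09% to 12.7% with distance. Blue marks dense shared regions and orange thin knockdown-only regions.

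Among isolated regions with EZH2, chr3:55519639-55522134 held the most EZH2 tags. It lay 366 kb from control H3K27me3, was 2496 bp wide and held 43.8 H3K27me3 tags in knockdown, or 17.5 per kb. Its control EZH2 peak held 21 normalised tags, 11.47-fold above the surroundings, with no knockdown EZH2 peak, and H3K27ac was listed in both groups. At chr20:25565303-25566303, 172 kb from control H3K27me3 and with 17.9 tags per kb, control EZH2 held 13.5 tags and 2 knockdown EZH2 peaks were listed, with no H3K27ac. At chr7:30175032-30176311, 110 kb away and with 13.1 tags per kb, control EZH2 held 13.5 tags, and knockdown EZH2 and H3K27ac of both groups were listed. The knockdown EZH2 peak shared only 4 bp with that region, and the control H3K27ac region 93 bp. A further isolated region, chr1:109203347-109204347, was 634 kb away, with 14.5 H3K27me3 tags per kb and 13.5 control EZH2 tags. There EZH2 was not listed in knockdown, while H3K27ac was listed in both groups. These regions are the first 4 by control EZH2 tags among the 43 beyond 100 kb, and were chosen after their values were seen.

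EZH2 of both groups was listed at 24 regions (0.474%), against 3.66% of all knockdown H3K27me3 regions, and EZH2 of knockdown without control at 15 (0.296%), against 0.456%. At the 24, the strongest control peak held 6 to 231 normalised tags with a median of 12.4, and the strongest knockdown peak 6.89 to 443.7 with a median of 8.96. The knockdown value was lower in 16 and higher in 8. Per kb of peak window, which was 183 bp in control and 151 bp in knockdown, it was lower in 11 and higher in 13. The direction in the knockdown therefore depended on the window, and only regions listed in both groups entered.

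The strongest EZH2 peaks stood apart from the rest. At chr22:18879638-18880638 H3K27me3 held 51.1 tags, or 51.0 per kb, the highest density of all. EZH2 there held 231 tags in control and 443.7 in knockdown, 54.35-fold and 90.11-fold above the surroundings, and H3K27ac held 63.1 and 78.0. EZH2 was thus listed with more tags in the knockdown library than in control. The clonal fold of that H3K27me3 region was 1.52, against a median of 0.98 over all dense knockdown-only regions. At chr10:42406187-42407441, within 2 Mb of the longest part of the chromosome that no list covers, EZH2 held 127.5 and 133 tags, with 32.8 H3K27me3 tags per kb and a clonal fold of 1.71. For chr4:120723661-120724661 the density was 43.1 tags per kb at a clonal fold of 1.94, with 12.8 EZH2 tags in control and 20.7 in knockdown. These were the 3 regions above the 26.0 tags per kb needed per control window, and repeated tags were high at all 3. Their part in the calls was not tested.

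The next 3 regions by density had clonal folds near the median, while the eighth, chr14:96900381-96901381, and the tenth, chr7:61982214-61983486, had 1.84 and 1.70. The fourth, chr21:45680901-45681901, held 21.7 tags per kb at a clonal fold of 0.94 and lay 1277 bp from control H3K27me3. Next was chr2:134820547-134822473, with 21.5 tags per kb over 1927 bp at 0.95 and a distance of 30874 bp. Its EZH2 peaks held 7.5 tags in control and 8.96 in knockdown. It was followed by chr20:24200143-24202268, with 21.3 tags per kb over 2126 bp at 0.97, and neither this region nor the fourth held EZH2. A clonal fold of 1.5 or more occurred in 10 regions (0.197%), against 0.0396% of all knockdown H3K27me3 regions and 0.142% of dense shared regions. Without these 10, control EZH2 was listed at 5.16% and knockdown EZH2 at 0.712% of dense knockdown-only regions.

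The regions with the most H3K27me3 tags were wide ones. The first, chr2:232692592-232703178, was 10587 bp wide and held 165 tags, or 15.6 per kb, at 3502 bp from a control region. The widest, chr19:15164268-15176492, spanned 12225 bp with 159.7 tags, or 13.1 per kb, at 4036 bp from control. It was followed in tags by chr11:66156385-66166356 with 141.4 and chr7:132288318-132298383 with 138.7, the latter 697 bp from a control region. Among the 10 with the most tags, chr19:269229-278184 was the farthest from control H3K27me3, at 77449 bp. Across its 8956 bp it held 129.9 tags, or 14.5 per kb. Apart from those at 697 and 77449 bp, the 10 lay 2932 to 7937 bp away, around the median of 7343 bp over all dense knockdown-only regions. None of the 10 held an EZH2 or H3K27ac peak of either group. Of all dense knockdown-only regions 94.0% held none, and of those above 4000 bp 7.87% held control EZH2.

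Active chromatin was rare at these regions. Control H3K27ac overlapped 27 of 5064 (0.533%, 0.352 to 0.775), against 0.919% of all knockdown H3K27me3 regions. Knockdown H3K27ac overlapped 54 (1.07%, 0.802 to 1.39), against 2.09%. Thin knockdown-only regions had 0.287% and 0.793%, differences of 0.247 (0.0736 to 0.492) and 0.273 (0.0137 to 0.603) percentage points. Dense shared regions had 2.79% and 6.01%, and thin shared regions 0.916% and 2.06%. H3K27ac was listed in both groups at 25 regions, in knockdown alone at 29 and in control alone at 2, against 0.847%, 1.24% and 0.0721% of all knockdown H3K27me3 regions. As shares of the 5064 these were 0.494%, 0.573% and 0.0395%. Knockdown H3K27ac was called with 1000 bp windows at 9.47 tags per kb and control with 150 bp windows at 34.4, so the larger knockdown number is not comparable with the control number. A control H3K27ac region lay within 10 kb of 359 regions (7.09%), against 7.00% of thin knockdown-only and 8.69% of all knockdown H3K27me3 regions.

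H3K27ac occurred mostly where control EZH2 was listed, but mostly without knockdown EZH2. Of the 27 regions with control H3K27ac, 23 (85.2%, 66.3 to 95.8) also held control EZH2. Control H3K27ac lay at 23 of 267 regions with control EZH2 (8.61%, 5.54 to 12.6) and at 4 of 4797 without it (0.0834%, 0.0227 to 0.213). Knockdown H3K27ac lay at 33 of these 267 (12.4%, 8.66 to 16.9) and at 21 of the 4797 (0.438%). Of the 54 regions with knockdown H3K27ac, 33 (61.1%, 46.9 to 74.1) held control EZH2 and 13 (24.1%, 13.5 to 37.6) knockdown EZH2. Knockdown EZH2 was also listed at 11 of the 27 regions with control H3K27ac (40.7%, 22.4 to 61.2). In dense shared regions 83.0% of those with control H3K27ac held control EZH2, in thin shared regions 62.5% and in thin knockdown-only regions 43.9%. In all, 4762 regions (94.0%) held no peak of EZH2 or H3K27ac of either group. The share was 89.4% of all knockdown H3K27me3 regions, 97.8% of thin knockdown-only, 93.3% of thin shared and 61.7% of dense shared regions.

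The H3K27ac regions overlapping them ranged widely in strength. The most tags were at chr21:11168491-11170293, with 416.3 in control and 556.9 in knockdown, over acetylated regions of 2892 and 10379 bp that reached beyond the H3K27me3 region. That site lay within 2 Mb of the chromosome's longest unlisted stretch and held 25.9 H3K27me3 tags, with EZH2 at 12.8 tags in control and 10.3 in knockdown. At chr17:36101816-36104775, away from such sequence, H3K27ac held 387.7 tags in control and 337.3 in knockdown. H3K27me3 held 38.9 tags over 2960 bp there, control EZH2 11.3, and control H3K27me3 was 92008 bp away. The site chr9:68455103-68456359 held 333.2 and 425.2 H3K27ac tags, with 23.3 EZH2 tags in control and 8.27 in knockdown. At chr22:22651469-22653390, only 81 bp from a control H3K27me3 region, H3K27ac held 164 and 212.4 tags and EZH2 12 and 16.5. The strongest knockdown H3K27ac with no control H3K27ac was at chr9:91792124-91793699, with 138.4 tags, 7.5 control EZH2 tags and control H3K27me3 at 396321 bp. Across the 25 regions with H3K27ac in both groups the median was 34.4 tags in control and 53.7 in knockdown, but 50 and 27.5 per kb, and acetylated regions were called wider in knockdown.

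Sequence within 2 Mb of the longest unlisted stretch of each chromosome held 126 of the regions (2.49%), against 3.01% of all knockdown H3K27me3 regions. It held 18 of the 267 with control EZH2, 6 of the 39 with knockdown EZH2, 7 of the 27 with control H3K27ac and 10 of the 54 with knockdown H3K27ac. Away from it the shares were 5.04%, 0.668%, 0.405% and 0.891%.

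The regions were spread over all chromosomes. Their share of the knockdown H3K27me3 list ran from 4.04% (3.47 to 4.67) on chromosome 16 to 6.23% (5.53 to 6.99) on chromosome 4, around 5.14% overall. In number per Mb they ran from 1.19 on chromosome 13 to 2.91 on chromosome 20 among autosomes, and were at 0.276 on chromosome X. The whole knockdown H3K27me3 list was likewise sparse on X, at 6.30 regions per Mb, against 22.3 to 57.9 on autosomes. Chromosome X held 42 of the regions, 4.38% (3.18 to 5.88) of its knockdown list. Control EZH2 was listed at 27 of 271 regions on chromosome 4 (9.96%), at 14 of 139 on chromosome 19 (10.1%) and at 4 of 176 on chromosome 16 (2.27%). These were the highest and lowest shares over the chromosomes and rest on small counts, against 5.27% over all dense knockdown-only regions. A difference between chromosomes was not tested.

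**Figure D5:**
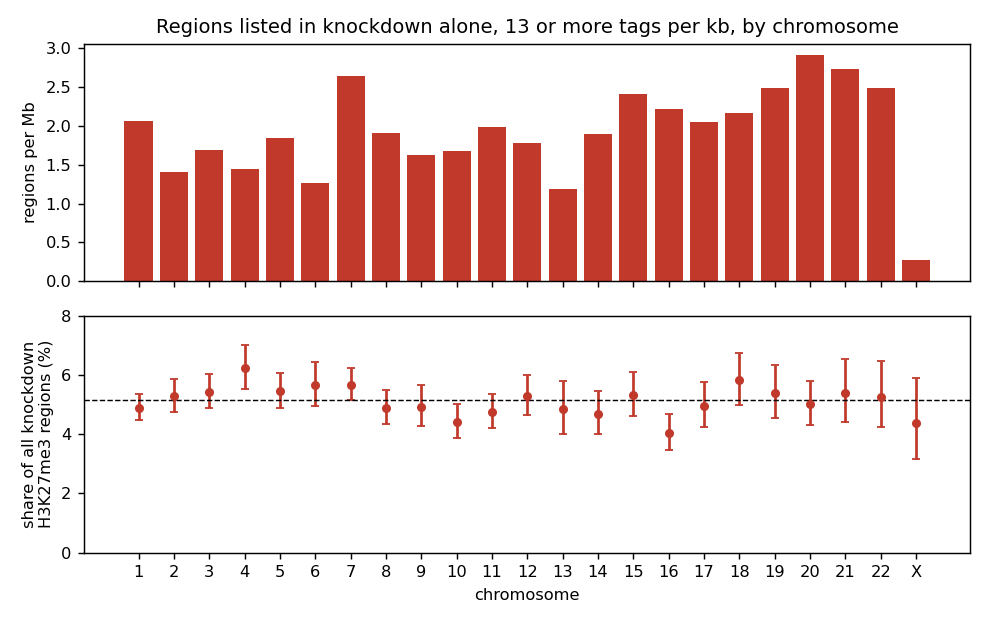
Dense knockdown-only regions per Mb of the span with listed regions (top, bars) and as a share of all knockdown H3K27me3 regions in percent with 95% exact binomial intervals (bottom), by chromosome (x). Chromosome X is lowest per Mb at 0.276, while its share of 4.38% lies within the range of the autosomes, and the dashed line marks 5.14%.

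Along the chromosomes they lay somewhat nearer the ends than thin knockdown-only regions. The median distance to the outermost listed base of the chromosome was 25.6 Mb (24.5 to 26.8), against 27.1 Mb for thin knockdown-only and 19.0 Mb for dense shared regions. Within 5 Mb of that base lay 12.4% (11.5 to 13.4), 9.34% and 21.7%. Over all knockdown H3K27me3 regions the median was 24.9 Mb and the share 12.6%, so the dense knockdown-only regions lay near the value of the whole list. In windows of 1 Mb, 1847 of the 2733 windows with any knockdown H3K27me3 region held at least 1 of them, and 632 held exactly 1. The fullest window, on chromosome 15 from 92000001 to 93000000, held 15 among 149 knockdown and 121 control H3K27me3 regions, with 12 control and 4 knockdown EZH2 peaks. The window on chromosome 5 from 3000001 to 4000000 held 13, with 203 control H3K27me3 regions, 37 control EZH2 peaks and 10 knockdown ones. Windows with 13 also lay on chromosome 10 from 4000001, on chromosome 12 from 113000001 and on chromosome 21 from 41000001. In these 5 windows a control EZH2 peak lay in 1 of the regions on chromosome 15, in 1 on chromosome 5 and in none of the others. Of the 5064 regions, 31 lay in windows without any control H3K27me3 region, a count that was not made for the other knockdown regions.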

How the data were processed

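The authors aligned reads with BWA 0.6.1 to hg19 and called peaks with HOMER 4.1, per the submitters' processing notes. Each library was called alone without input, per the file headers: EZH2 with fixed windows at a false discovery rate of 0.001 and 4-fold over 10 kb, control histone lists with 150 bp windows at 0.001, and knockdown histone lists with 1000 bp windows at a Poisson p of 0.001. The deposited signal, used throughout, is a region's tag number after the authors rescaled every library to 10000000 tags. The deposited score comes from the caller and is not scaled for depth. The deposited fold over local background and the clonal fold, a ratio, are the authors' values. The deposited focus ratio, a fraction, the local p-value and the other column, region size, were not used.

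Samples were grouped by title. Overlap meant at least 1 shared bp, width was end minus start plus 1, and distances ran edge to edge. Shares have exact binomial (Clopper-Pearson) intervals, differences Newcombe intervals and medians order-statistic intervals, all at 95% over regions, which are not replicates. No p-value was computed. The regions and measures were chosen with earlier results of these data known. Named regions were the 10 of highest density, most tags and widest, the 5 farthest from control, the 10 strongest for EZH2 and H3K27ac of each group, 5 on either side of the minimum and the 5 fullest windows, of which those that matter are printed. The density and distance bins, and the regions beyond 100 kb, were chosen once values had been seen. The overlap code was tested on simulated peaks. Alternatives were other minima, distances, the upper 50% of scores and left-out sequence. Software was scipy 1.17.1, pandas 2.3.3, matplotlib 3.10.9 and numpy 2.4.6 under Python 3.11.15.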

Additional observations from a re-analysis of the deposited data

How the results depend on the processing

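The density minimum set most values. With 10 tags per kb as the minimum there were 47216 regions, of median width 1280 bp and 8544 bp from control H3K27me3. Control EZH2 then lay in 2.05%, knockdown EZH2 in 0.288%, control H3K27ac in 0.297% and knockdown H3K27ac in 0.796%. With 16 there were 239 regions, of width 1635 bp, 10926 bp from control and 22.2 Mb from the outermost listed base, and the shares were 19.2%, 4.18%, 2.09% and 3.35%. Requiring less than 50% of a region to be covered by control regions gave 23828. Requiring no control region within 1 kb moved the median distance to 8640 bp. Counting peaks within 1 kb gave 6.04% for control EZH2, 0.987% for control H3K27ac and 2.27% for knockdown H3K27ac. With the upper 50% of each peak list by score the shares were 1.3%, 0.276%, 0.336% and 0.592%. The other 34 of 58 alternative values stayed within the interval or, for the number of regions, within 1.5 times, among them all for autosomes alone and without the longest unlisted stretches. Leaving out regions of clonal fold 1.5 or more was chosen after seeing the data. No paired analysis was possible because each group held 1 library, and no library could be left out for the same reason.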
